A study of Homo sapiens with 18 samples.

Results

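Transcripts of the mitochondrial respiratory chain were followed through the early differentiation of human pluripotent stem cells into neural ectoderm. Members were the rows of the expression table whose symbol named a subunit of complexes I to IV, or of the mitochondrial-coded pair of complex V. The symbols were the 13 protein genes of the mitochondrial genome and the families NDUFA, NDUFB, NDUFC, NDUFS, NDUFV, SDH, UQCR and COX5 to COX8. The rule found 89 of 37550 rows. Of these, 13 were coded in mitochondrial DNA and 76 in the nucleus. The nuclear rows comprised 64 gene symbols and 12 pseudogene symbols. COX4I1, CYC1 and NDUFAB1 are subunits whose symbols fall outside the rule, and they are given apart.

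The cells were H1, an established human embryonic stem cell line of wild-type genotype, in 9 groups of 2 replicates, 18 libraries in all. Nothing in the labels says whether the replicates came from separate cultures, so p-values measure only the spread between these libraries, which may be technical. Undifferentiated cells were collected at day 0 (hPSC). All other cells spent day 1 in a definitive ectoderm medium with the TGF-beta receptor inhibitor A8301 at 1 µM, the MEK inhibitor trametinib at 250 nM, the porcupine inhibitor C59 and the BMP receptor inhibitor LDN193189 at 100 nM. Anterior neural ectoderm (aNE) then had a day in A8301, LDN193189, C59 at 1 µM and thiazovivin. Posterior neural ectoderm (pNE) had that day in A8301, LDN193189 and thiazovivin, with FGF2 at 20 ng/mL, the tankyrase inhibitor XAV939 at 1 µM and TTNPB, which activates retinoic acid receptors, at 50 nM. Both were collected at day 2. Cells of either origin were also taken to day 4 in a forebrain medium (aNE_T, pNE_T), a midbrain medium (aNE_M, pNE_M) or a hindbrain medium (aNE_H, pNE_H). The forebrain medium began with XAV939, LDN193189 and FGF2, and the make-up of the other media is not used here. Plating density was 37500 cells per cm2 for collection at day 2. For day 4 it was 75000 cells per cm2 from aNE and 150000 cells per cm2 from pNE. Density therefore cannot be told apart from origin at day 4, nor from time and medium between day 2 and day 4. No plating density is given here for hPSC. Between hPSC and day 2, time, medium and inhibitors changed together and cannot be told apart.

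The respiratory chain sits in the inner mitochondrial membrane. Complex I takes electrons from NADH and complex II takes them from succinate, complex III passes them on to cytochrome c, and complex IV hands them to oxygen. Complexes I, III and IV pump protons, and the ATP synthase, complex V, uses the resulting gradient to make ATP. The chain is built from 2 genomes: a small set of core subunits comes from mitochondrial DNA, transcribed from both strands into long precursors that are cut apart, while all other subunits, and the whole of complex II, come from the nucleus. Pluripotent stem cells are known for relying heavily on glycolysis and for immature mitochondria.

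The mitochondrial-coded members lie on chromosome M, from MT-ND1 at 3307 to 4262 to MT-CYB at 14747 to 15887 (GRCh38, GENCODE 29). Of the 13 genes, 12 lie on one strand. MT-ND6, at 14149 to 14673, lies on the other. Whether the authors' quantification used the strand is not given in the sources used here. MT-ATP8 and MT-ATP6 overlap, as do MT-ND4L and MT-ND4, and reads from the shared bases cannot be assigned to 1 gene of the pair. The sequences of the shorter genes of these pairs are shown because their levels rest on few bases, with the shared bases in capitals. MT-ATP8 (chrM:8366-8572, plus strand) shares 46 of its 207 bases, or 22.2%, with MT-ATP6, and MT-ND4L (chrM:10470-10766, plus strand) shares 7 of its 297 bases, or 2.36%, with MT-ND4.
MT-ATP8: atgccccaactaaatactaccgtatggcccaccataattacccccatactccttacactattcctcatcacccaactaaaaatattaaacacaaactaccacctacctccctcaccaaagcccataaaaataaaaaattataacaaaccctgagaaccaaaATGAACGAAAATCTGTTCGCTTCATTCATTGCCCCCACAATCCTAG
MT-ND4L: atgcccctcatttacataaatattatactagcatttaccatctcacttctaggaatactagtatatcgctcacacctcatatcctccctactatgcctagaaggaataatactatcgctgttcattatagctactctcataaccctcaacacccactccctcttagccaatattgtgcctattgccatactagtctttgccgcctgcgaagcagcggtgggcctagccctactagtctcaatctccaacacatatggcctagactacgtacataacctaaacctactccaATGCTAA

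Values were deposited as TPM, the share of all transcripts that a gene makes up, which is scaled for transcript length. The levels of short genes rest on few bases, so their rank beside other genes is uncertain. Over the 18 libraries MT-ATP8 stood at 0.243 to 0.474 of MT-ATP6, and MT-ND4L at 1.1 to 2.04 of MT-ND4. TPM keeps no read number, so depth is unknown. The closest library to each of the 18 was its replicate, with r across genes of 0.982 to 0.987, against at most 0.968 with a library of another group. The labels fitted the markers at day 2: POU5F1, which marks pluripotent cells, stood at 2900 and 2878 TPM in hPSC and at 162 to 171 TPM in aNE and pNE, and FEZF1, a forebrain marker, rose from 1.55 TPM in both hPSC libraries to 323 and 325 TPM in aNE. Of 10 neural ectoderm markers, 9 rose in aNE and 7 in pNE. At day 4, the midbrain marker EN1 reached 141 and 128 TPM in aNE_M but was listed at 0 in both pNE_M libraries, so pNE_M is called by its medium only. In bulk RNA, fewer cells of a type and less RNA per cell cannot be told apart.

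The 13 mitochondrial-coded transcripts together made up 0.960% and 1.23% of the summed TPM in the hPSC libraries. In the 4 day-2 libraries they made up 2.96% to 3.74%. The summed level was 9601 and 12258 TPM in hPSC and, at day 2, 31920 and 32760 TPM in aNE and 29614 and 37387 TPM in pNE. All day-2 libraries lay above both hPSC libraries, and the aNE and pNE libraries overlapped. The mean sum was 2.96-fold higher in aNE and 3.07-fold higher in pNE than in hPSC. The sum of the nuclear-coded rows was lower at day 2 than in hPSC: 16509 and 16332 TPM in hPSC and, at day 2, 12940 and 13175 TPM in aNE and 14426 and 12917 TPM in pNE, or 0.795 and 0.833 of the hPSC mean. The mitochondrial to nuclear ratio of the sums was 0.666 ± 0.12 (SD, n = 2) in hPSC, 2.48 ± 0.0134 (SD, n = 2) in aNE and 2.47 ± 0.595 (SD, n = 2) in pNE. The values for aNE and pNE share the hPSC libraries.

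**Figure D1:**
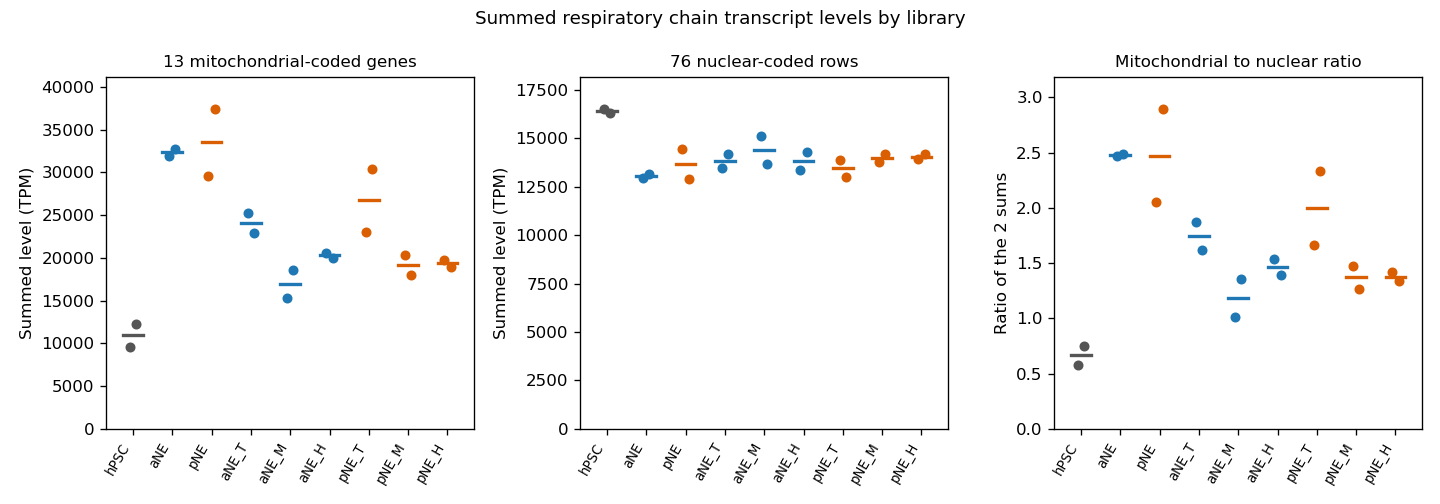
Summed levels of the 13 mitochondrial-coded genes and of the 76 nuclear-coded rows (TPM) and the ratio of the 2 sums, with 1 point per library and a bar at each group mean. Grey is hPSC, blue the groups of anterior origin and orange those of posterior origin. The mitochondrial-coded sum is lowest in hPSC, at 9601 and 12258 TPM, and highest at day 2, whereas the nuclear-coded sum is highest in hPSC.

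All 13 mitochondrial-coded genes rose from hPSC to aNE and from hPSC to pNE, each by at least 2-fold (limma, Benjamini-Hochberg adjusted p under 0.05). Over all 17033 genes tested, 22.6% rose in aNE and 20.8% in pNE at this threshold, and 7.36% and 7.14% rose by at least 2-fold. The median log2 difference of the 13 genes was 1.69 in aNE and 1.72 in pNE, beside 0.06 and 0.05 over all tested genes. Of the 18 libraries, the 16 that were not hPSC lay above both hPSC libraries for 12 of the 13 genes, the exception being MT-ATP8.

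Complex I holds 7 of the mitochondrial-coded subunits, which build the proton-pumping arm in the membrane. MT-ND2 stood at 233 and 285 TPM in hPSC and, at day 2, 1042 and 1183 TPM in aNE and 984.3 and 1373 TPM in pNE. MT-ND1 stood at 254 and 362 TPM in hPSC and, at day 2, 1254 and 1346 TPM in aNE and 1086 and 1510 TPM in pNE. For neither gene did hPSC overlap with either day-2 group. The log2 difference of MT-ND2 was 2.10 (SE 0.168, adjusted p = 6.54e-07, limma) in aNE and 2.17 (SE 0.168, adjusted p = 5.27e-07, limma) in pNE. MT-ND1 rose by 2.10 in aNE and 2.08 in pNE (SE 0.178). MT-ND3 had the highest level of the 13 genes in hPSC, at 2094 and 2556 TPM. It reached 6259 and 4969 TPM in aNE and 6141 and 6048 TPM in pNE. Its log2 difference was the smallest of the complex I genes, 1.27 (SE 0.131) and 1.40. MT-ND5 (1.89 in aNE, 1.83 in pNE), MT-ND4 (1.72 in both) and MT-ND4L (1.66 and 2.00) lay between. MT-ND6, the gene on the opposite strand, rose by 1.88 and 1.82, and its ratio to MT-ND5 kept within 1.89 and 2.16 in all 18 libraries. As the use of strand is not given, MT-ND6 values may hold reads of the other strand, which was not tested. RNA was selected with poly-T beads, and how well these captured MT-ND6 or the other mitochondrial-coded transcripts was not tested either.

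MT-CYB, the cytochrome b of complex III, stood at 394 and 545 TPM in hPSC and, at day 2, 1407 and 1586 TPM in aNE and 1186 and 1652 TPM in pNE. Its log2 difference was 1.69 in aNE and 1.59 in pNE (SE 0.186). The catalytic core of complex IV comes from MT-CO1, MT-CO2 and MT-CO3. MT-CO1 stood at 1319 and 1772 TPM in hPSC and, at day 2, 4640 and 5135 TPM in aNE and 4166 and 5554 TPM in pNE, with no overlap. It rose by 1.67 and 1.65 (SE 0.171), and MT-CO2 rose by 1.61 and 1.60 (SE 0.177). MT-CO3 rose by the least of the 3, by 1.30 in aNE and 1.27 in pNE (SE 0.156, adjusted p = 2.55e-05 and 3.3e-05, limma). For complex V, MT-ATP6 rose by 1.56 and 1.60 (SE 0.241).

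MT-ATP8 was the least certain of the 13 genes. It stood at 239 and 163 TPM in hPSC and, at day 2, 543 and 927 TPM in aNE and 404 and 1060 TPM in pNE. Its log2 difference was 1.84 in aNE and 1.73 in pNE, with an SE of 0.442. The rise in aNE was not called without aNE replicate 2 (1.46, adjusted p = 0.0541, limma), and the rise in pNE was not called without hPSC replicate 2 (1.45, adjusted p = 0.0648) or without pNE replicate 2 (1.03, adjusted p = 0.101). In each of the 11 alternatives per comparison, the other 12 genes kept their rise, with adjusted p of at most 0.00575.

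**Figure D2:**
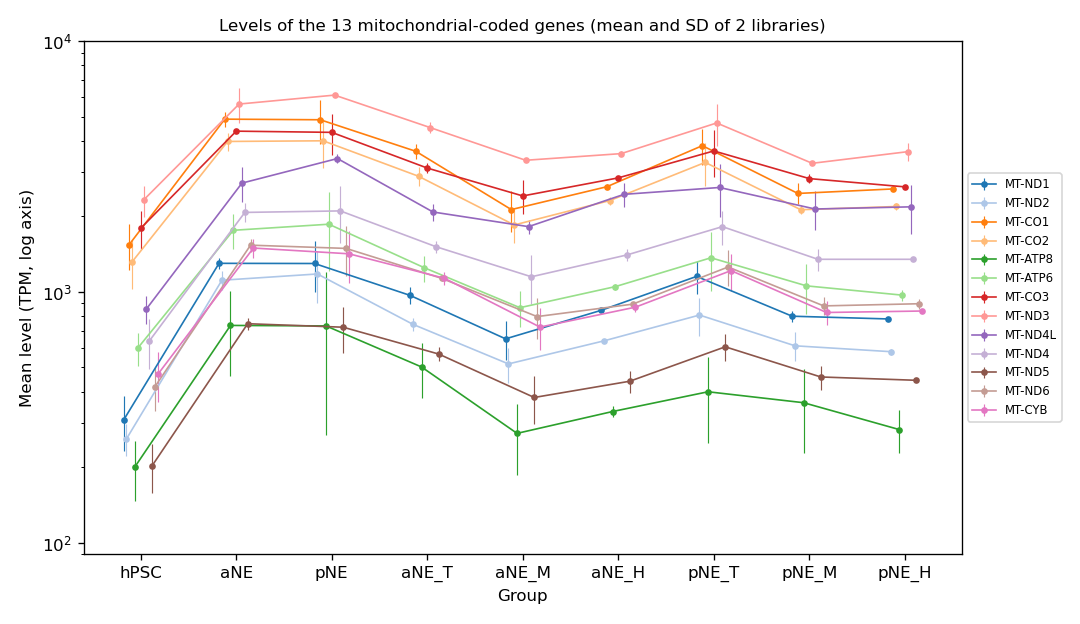
Mean level of each mitochondrial-coded gene in the 9 groups (TPM, log axis), with error bars of 1 SD over 2 libraries. Lines only join the values of 1 gene, and points are shifted sideways so that the bars can be seen. All 13 genes are lowest in hPSC, MT-ND3 is highest in hPSC at 2094 and 2556 TPM, and the widest bars are those of MT-ATP8.

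Of the 76 nuclear-coded rows, 62 had at least 1 TPM in at least 2 libraries and were tested: 59 genes and 3 pseudogene rows. From hPSC to aNE, 28 of the 62 fell and 0 rose (limma; at an unadjusted p under 0.05 32 were lower and 1 was higher), while 18.9% of all tested genes fell. From hPSC to pNE, 23 fell and 1 rose, while 17.6% of all tested genes fell. None of these falls reached 2-fold, as 6.19% and 5.74% of all tested genes did. The median log2 difference of the tested rows was -0.31 in aNE and -0.19 in pNE. Without pNE replicate 2, the 24 calls in pNE became 15, all of them falls. Among the 58 nuclear genes with at least 10 TPM in every library, the highest group mean was that of hPSC in 33.

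Complex I has 36 tested nuclear-coded members. In aNE 15 fell and 0 rose, and in pNE 12 fell and 1 rose. Of the catalytic core, NDUFS3 stood at 147 and 154 TPM in hPSC and, at day 2, 105 and 111 TPM in aNE and 110 and 103 TPM in pNE, with no overlap. NDUFS3 fell by 0.48 in aNE and by 0.50 in pNE on the log2 scale (SE 0.0772, adjusted p = 0.000284 and 0.000231, limma). NDUFV2 fell by 0.47 and 0.40 (SE 0.125), but its call was lost without hPSC replicate 2 (adjusted p = 0.0589 in aNE, 0.118 in pNE), aNE replicate 1 (0.059), hPSC replicate 1 (0.0527 in pNE) or pNE replicate 2 (0.243). NDUFV1, which binds NADH, was not called, at 93.1 to 94.8 TPM in hPSC and 86.2 to 103 TPM at day 2. NDUFS1, NDUFS7 and NDUFS8 were also not called in either comparison, with log2 differences from -0.30 to 0.17.

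Accessory subunits of complex I gave the larger falls. NDUFS5 stood at 1045 and 1081 TPM in hPSC and, at day 2, 643 and 640.4 TPM in aNE and 723 and 658 TPM in pNE. It fell by 0.73 in aNE (SE 0.0711, adjusted p = 4.13e-06, limma) and by 0.62 in pNE. NDUFB4 stood at 381 and 394 TPM in hPSC and, at day 2, 248 and 237 TPM in aNE and 258 and 237 TPM in pNE. It fell by 0.67 and 0.65 (SE 0.0675). Neither gene overlapped between hPSC and a day-2 group. NDUFA7 fell by 0.74 in pNE (SE 0.15, adjusted p = 0.0017, limma). Its fall of 0.50 in aNE was not called without any 1 of the 4 libraries compared, hPSC replicate 1 (adjusted p = 0.0589), hPSC replicate 2 (0.0719), aNE replicate 1 (0.0513) or aNE replicate 2 (0.0816). NDUFC2 was the member that rose in pNE, by 0.22 (SE 0.071, adjusted p = 0.0264, limma). That call was lost without hPSC replicate 2 (adjusted p = 0.241), without pNE replicate 2 (0.209), with median-ratio scaling (0.168) and in a fit of the compared libraries alone (0.14).

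Complex II, succinate dehydrogenase, has no mitochondrial-coded subunit and also works in the TCA cycle. All 4 of its genes fell in aNE and 3 of 4 in pNE. SDHD, a membrane anchor, stood at 100.4 and 103 TPM in hPSC and, at day 2, 51.8 and 60.8 TPM in aNE and 73.9 and 67.3 TPM in pNE. SDHB, the iron-sulfur subunit, stood at 81.7 and 84.2 TPM in hPSC and, at day 2, 47.8 and 47.7 TPM in aNE and 67.6 and 59 TPM in pNE. For both genes hPSC was highest, aNE lowest and pNE between, with no overlap. SDHD fell by 0.85 in aNE (SE 0.086, adjusted p = 5.65e-06, limma) and 0.53 in pNE, and SDHB by 0.78 (SE 0.0761, adjusted p = 3.85e-06) and 0.39. SDHA, the flavin-bearing subunit, fell by 0.37 and 0.43 (SE 0.0855). The rows of 4 SDHA pseudogenes reached 54.3% of its level, so reads may be split between them and its values are uncertain. SDHC, the other anchor, fell by 0.30 in aNE (adjusted p = 0.0179), a call lost without hPSC replicate 2 (adjusted p = 0.114) or aNE replicate 1 (0.138), and its log2 difference in pNE was -0.20 (adjusted p = 0.0989, limma).

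For complex III, 4 of 8 tested nuclear-coded members fell in aNE and 4 in pNE. UQCRC1, a core protein, stood at 276 and 270.2 TPM in hPSC and, at day 2, 205 and 208 TPM in aNE and 192 and 204 TPM in pNE. It fell by 0.40 and 0.46 (SE 0.0662, adjusted p = 0.000325 and 0.000117, limma). Its partner UQCRC2 was not called, at -0.22 and -0.08. UQCRFS1, the Rieske iron-sulfur protein, fell by 0.58 and 0.40 (SE 0.0971). The fall in pNE was not called without pNE replicate 2 (-0.27, adjusted p = 0.069). Pseudogene rows reached 38.2% of the UQCRFS1 level, so its values are uncertain.

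Complex IV has 11 tested nuclear-coded members, NDUFA4 among them, of which 5 fell in aNE and 4 in pNE, and 0 rose in either (limma). COX5A stood at 513 and 516 TPM in hPSC and, at day 2, 369 and 338 TPM in aNE and 441 and 380 TPM in pNE. COX5A fell by 0.54 in aNE (SE 0.0775, adjusted p = 0.00011, limma) and by 0.33 in pNE, where the call was lost without pNE replicate 2 (adjusted p = 0.0545). COX8A, the smallest subunit type of the complex, fell by 0.58 and 0.38 (SE 0.0883). COX6B1 fell by 0.45 and 0.41 (SE 0.112), and its call in pNE was lost without hPSC replicate 2 (adjusted p = 0.0593) or pNE replicate 2 (0.128). COX7B fell by 0.61 in aNE (SE 0.227, adjusted p = 0.0463, limma), a call lost without hPSC replicate 1 (0.25), hPSC replicate 2 (0.0517) or aNE replicate 1 (0.344), with the mitochondrial rows left out of the scaling (0.0561) and with the replicate number as a block (0.0578). COX6A1 and COX7A2 were not called, at -0.25 and -0.35 in aNE and -0.19 and -0.26 in pNE. The tissue-restricted isoforms were at or near 0: COX6A2 was listed at 0 in all 18 libraries, COX6B2 reached 0.626 TPM, COX7B2 0.35 TPM and COX8C 0.994 TPM. COX7A1, the heart and muscle partner of COX7A2, ranged from 0.304 to 3.34 TPM and was not called at day 2. UQCRHL, a duplicate of UQCRH, reached 0.459 TPM, beside 1095 and 1185 TPM for UQCRH in hPSC.

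Promoter sequences were compared for the nuclear-coded genes because many of them fell together. RefSeq (GRCh38.p14) promoters of 300 bases, from 250 bases before to 50 after the start, matched 53 of the 64 symbols. A match to the NRF1-like palindrome, on either strand, was found in 13 of the 53 (24.5%), against 6.28% of 27305 promoters. NRF1 is a transcription factor known for activating respiratory genes. The ETS-like letters CCGGAAG were found in 14 (26.4% against 10.7%) and the YY1-like letters AAGATGGC in 8 (15.1% against 3.03%). The NRF1-like and ETS-like motifs occurred together in 2 promoters. A match is a description of these letters only. Of the 13, promoters are shown for 4 members that fell in both day-2 groups and hold a match in the 120 bases before the start. These 120 bases are given 5′ to 3′ on the strand of the gene, with NRF1-like matches in capitals. UQCRFS1, which fell in both groups too and holds 1 match in these bases, is not shown. Members whose match lies elsewhere in the 300 bases are not shown either, whether they fell or not.
SDHD (chr11:112086753-112086872, plus strand): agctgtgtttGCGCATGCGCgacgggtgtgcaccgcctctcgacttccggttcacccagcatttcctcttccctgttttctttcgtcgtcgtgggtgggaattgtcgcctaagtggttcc
NDUFB4 (chr3:120596216-120596335, plus strand): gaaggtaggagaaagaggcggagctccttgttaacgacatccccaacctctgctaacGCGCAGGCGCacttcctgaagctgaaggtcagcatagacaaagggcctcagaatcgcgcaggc
UQCRC1 (chr3:48609647-48609766, minus strand): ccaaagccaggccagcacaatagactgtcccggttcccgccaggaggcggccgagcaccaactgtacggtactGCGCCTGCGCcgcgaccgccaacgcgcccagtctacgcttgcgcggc
SDHA (chr5:218200-218319, plus strand): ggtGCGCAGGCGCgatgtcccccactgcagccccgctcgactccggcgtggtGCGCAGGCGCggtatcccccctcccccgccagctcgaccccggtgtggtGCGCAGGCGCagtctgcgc

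The SDHA window holds 3 matches and the other 3 windows hold 1 each. Members with a match included both called and uncalled genes at day 2. SDHD and NDUFB4 fell by 0.85 and 0.67 in aNE, whereas NDUFA11, whose promoter also matched, stood at 364 and 381 TPM in aNE against 399.6 and 364 TPM in hPSC. SDHB, NDUFS3 and COX5A fell in aNE, and the NRF1-like match is not in their windows.

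Between the 2 origins at day 2, 0 of 13 mitochondrial-coded genes passed (limma; 0 at an unadjusted p under 0.05), with log2 differences of pNE minus aNE from -0.12 to 0.33. Of the nuclear-coded rows 3 of 62 passed, beside 13.6% of all tested genes. SDHB and SDHD were higher in pNE, by 0.40 (SE 0.0761, adjusted p = 0.00349, limma) and 0.32 (SE 0.086, adjusted p = 0.0244), with the levels given above. The SDHD call was lost without aNE replicate 1 (adjusted p = 0.235) or pNE replicate 1 (0.169), and in a fit of the compared libraries alone the calls of SDHB (0.0828) and SDHD (0.162) were lost. NDUFS1, the largest core subunit, stood at 70.6 and 70.0 TPM in aNE and 57.9 and 52.2 TPM in pNE and was lower in pNE by 0.35 (adjusted p = 0.0414, limma). Leaving out any 1 of the 4 libraries ended the NDUFS1 call, with adjusted p from 0.0589 to 0.185, as did median-ratio scaling (0.0537), under which 2 members were higher and 0 lower. Without aNE replicate 1 the number of calls was 1.

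At day 4, 0 of 13 mitochondrial-coded genes passed between the origins in each medium (limma; 0 at an unadjusted p under 0.05). The log2 differences of pNE-derived minus aNE-derived cells ran from -0.36 to 0.31 in forebrain, -0.04 to 0.39 in midbrain and -0.25 to 0.02 in hindbrain medium. With SEs of 0.131 to 0.442, these values do not show that the levels were alike. In forebrain medium 3 of 62 nuclear-coded rows passed, beside 21.1% of all tested genes: UQCRFS1 (0.37) and COX5A (0.26) were higher and NDUFB2 (-0.36) lower in pNE_T. With median-ratio scaling 5 were higher and 0 lower, and the NDUFB2 call was lost. The count was 1 without aNE_T replicate 1, aNE_T replicate 2 or pNE_T replicate 2. In midbrain medium 0 passed (limma; 8 at an unadjusted p under 0.05), beside 16.6% of all tested genes, and with median-ratio scaling 2 were higher. The count there was 5 without aNE_M replicate 1, 2 without aNE_M replicate 2 and 1 without either pNE_M replicate.

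In hindbrain medium 6 of 62 nuclear-coded rows passed, beside 21.9% of all tested genes, and all 6 were lower in pNE_H, as were 12.7% of all tested genes. SDHA stood at 49.5 and 51.4 TPM in aNE_H and 39.3 and 36.8 TPM in pNE_H and was lower by 0.40 (SE 0.0855, adjusted p = 0.00448, limma). NDUFV3, a small accessory subunit near the NADH site, stood at 20.1 and 20.6 TPM against 14.9 and 15.3 TPM, lower by 0.41 (SE 0.0936, adjusted p = 0.00678), a call lost in a fit of the compared libraries alone (0.0763). The groups overlapped for neither gene. UQCRQ, a complex III subunit, was lower by 0.50 (SE 0.165, adjusted p = 0.047), a call lost without aNE_H replicate 1 (0.0563), aNE_H replicate 2 (0.245) or pNE_H replicate 2 (0.32). One of the 6 was the pseudogene row UQCRHP1, named after its values were seen, at 1.63 and 1.67 TPM in aNE_H and listed at 0 in both pNE_H libraries, whose call was lost when any 1 of these 4 libraries was left out (adjusted p from 0.114 to 0.116). The count of 6 became 3 without aNE_H replicate 1, and 1 higher and 2 lower without pNE_H replicate 2. It became 2 higher and 2 lower without aNE_H replicate 2 and 1 higher and 3 lower without pNE_H replicate 1. With median-ratio scaling 1 was higher and 3 were lower.

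From day 2 to day 4 the mean level of all 13 mitochondrial-coded genes was lower in each medium, and 11 to 13 genes passed in midbrain and hindbrain medium and 2 in forebrain medium. The summed level, 31920 and 32760 TPM in aNE, was 25226 and 22895 TPM in aNE_T, 15303 and 18531 TPM in aNE_M and 20554 and 19992 TPM in aNE_H. From pNE, at 29614 and 37387 TPM, it was 23077 and 30368 TPM in pNE_T, 20377 and 17959 TPM in pNE_M and 19747 and 18935 TPM in pNE_H. Only pNE_T overlapped with its day-2 group. The mean sum was 0.744, 0.523 and 0.627 of the aNE value in forebrain, midbrain and hindbrain medium, and 0.798, 0.572 and 0.577 of the pNE value. Each of the 12 day-4 libraries stayed above both hPSC libraries. The 3 comparisons of each origin share its day-2 libraries.

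In midbrain medium all 13 genes fell from aNE, 7 of them by at least 2-fold, while 18.8% of all tested genes fell and 7.63% fell by at least 2-fold. Their median log2 difference was -1.01. MT-CO1 stood at 4640 and 5135 TPM in aNE and 1849 and 2412 TPM in aNE_M and fell by 1.21 (SE 0.171, adjusted p = 0.000111, limma). MT-ND2 and MT-CO2 fell by 1.11 each (SE 0.168 and 0.177). MT-ATP8 and MT-ND4L were the least certain: MT-ATP8 (-1.41) was not called without aNE replicate 2 (adjusted p = 0.182) or aNE_M replicate 1 (0.163), and MT-ND4L (-0.57) was not called without aNE replicate 1 (0.217), aNE_M replicate 1 (0.142) or aNE_M replicate 2 (0.0677). Both calls were also lost with no filter on low values (0.0568 and 0.0708), and MT-ATP6 was not called without aNE replicate 2 (0.0508). From pNE, 12 of 13 fell in midbrain medium, while 20.7% of all tested genes fell, with a median of -0.76. MT-ND3 stood at 6141 and 6048 TPM in pNE and 3290 and 3225 TPM in pNE_M and fell by 0.90 (SE 0.131, adjusted p = 0.000126, limma). The 12 calls became 5 without pNE replicate 2 or pNE_M replicate 2.

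In hindbrain medium 11 of 13 fell from aNE (17.5% of all tested genes fell) and 13 of 13 fell from pNE (22.6% fell). MT-CO1 stood at 2672 and 2582 TPM in aNE_H and fell by 0.89 (SE 0.171, adjusted p = 0.00143, limma). In pNE_H it stood at 2555 and 2596 TPM and fell by 0.90 (adjusted p = 0.00105). MT-ND4L (-0.14) and MT-ATP8 (-1.09) were the genes not called in aNE_H. The 11 calls became 6 without aNE replicate 2 and 7 without aNE_H replicate 2, and the 13 calls became 6 without pNE replicate 2. In forebrain medium 2 of 13 fell from each origin, while 14.6% of all tested genes fell from aNE and 18.1% from pNE. They were MT-ND2 (-0.58, SE 0.168) and MT-CO3 (-0.49, SE 0.156) in aNE_T, and MT-ND2 (-0.53) and MT-ND3 (-0.38) in pNE_T. These forebrain counts moved in both directions. At an unadjusted p under 0.05, 9 of 13 were lower in aNE_T and 2 in pNE_T. The 2 calls in aNE_T became 11 in a fit of the compared libraries alone, 5 with median-ratio scaling and 4 with the replicate number as a block, all of them falls. They became 1 without aNE replicate 1, aNE replicate 2 or aNE_T replicate 1, or with no filter on low values, and 0 without aNE_T replicate 2. The 2 in pNE_T became 0 without pNE replicate 2 or pNE_T replicate 1, in a fit of the compared libraries alone and with no filter on low values, 1 with median-ratio scaling, and 3 without pNE replicate 1 or pNE_T replicate 2. The difference between origins in the change from day 2 to day 4 passed for 0 of the 13 genes in each medium (interaction, limma; 0 at an unadjusted p under 0.05). Of the 62 nuclear-coded rows, 2 passed this interaction in forebrain, 1 in midbrain and 5 in hindbrain medium, beside 12.3%, 13.9% and 16.1% of all tested genes. In forebrain medium the 2 became 0 without aNE replicate 2 or aNE_T replicate 2, in midbrain medium the 1 became 3 without aNE_M replicate 1 or pNE replicate 2, and in hindbrain medium the 5 became 1 without aNE replicate 1.

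**Figure D3:**
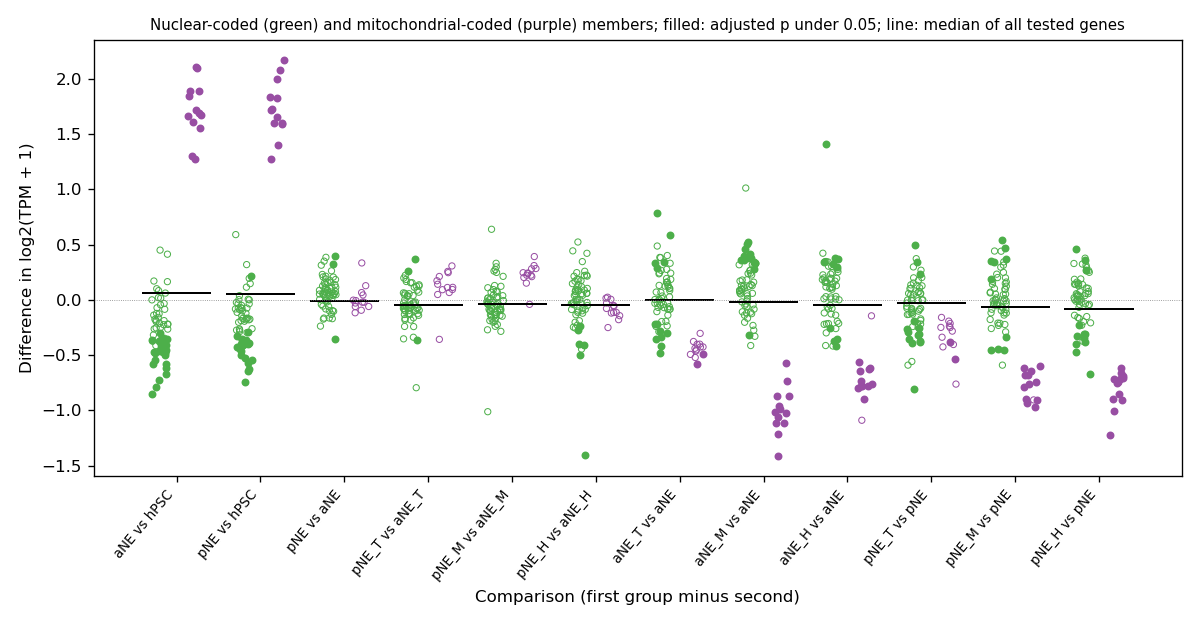
Log2 differences of the 62 tested nuclear-coded rows (green) and the 13 mitochondrial-coded genes (purple) in the 12 comparisons of 2 groups, in log2(TPM + 1). Filled points passed at an adjusted p under 0.05, open points did not, and the black line is the median of all 17033 tested genes. The purple points lie above 1 in both comparisons with hPSC and below 0 in all 6 comparisons of day 4 with day 2, while green points lie on both sides of 0 in those 6.

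The 3 media were also compared within each origin at day 4 (moderated F test over the 3 groups, limma). From aNE, 5 of 13 mitochondrial-coded genes differed between media (MT-CO1, MT-CYB, MT-CO2, MT-ND1 and MT-ND3), beside 36.7% of all tested genes. From pNE, 4 of 13 differed (MT-CO1, MT-CO2, MT-ND1 and MT-ND3), beside 33.4%. Both counts lie near the shares over all tested genes, so they set the members apart from other genes in neither origin. MT-CO1 had the widest range of group means among those called, 0.78 on the log2 scale from aNE (adjusted p = 0.00826) and 0.63 from pNE (adjusted p = 0.0204). From aNE the count was 0 without aNE_T replicate 1, 1 without aNE_T replicate 2 or aNE_M replicate 1, 2 without aNE_H replicate 2 and 3 without aNE_H replicate 1. From pNE it was 0 without pNE_T replicate 2 or pNE_M replicate 2 and 1 without pNE_M replicate 1. Of the nuclear-coded rows 14 of 62 differed from aNE and 10 of 62 from pNE, both below the shares over all tested genes. The 14 became 7 without aNE_T replicate 1 and 8 without aNE_T replicate 2, and the 10 became 6 without pNE_H replicate 2.

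Nuclear-coded members moved in both directions between day 2 and day 4. From aNE, 5 rose and 8 fell in forebrain medium (15.7% and 14.6% of all tested genes rose and fell), 13 rose and 1 fell in midbrain medium (16.7% and 18.8%) and 6 rose and 4 fell in hindbrain medium (13.8% and 17.5%). From pNE, 3 rose and 11 fell in forebrain medium (15.5% and 18.1%), 6 rose and 4 fell in midbrain medium (14.7% and 20.7%) and 3 rose and 9 fell in hindbrain medium (14.6% and 22.6%). As shares of the 62 tested rows, these counts lie near or below those of all tested genes, the 13 rises in aNE_M being near but slightly above. Of the 6 risers in aNE_H, 1 was UQCRHP1. With median-ratio scaling the split was 8 to 2 in aNE_H, 8 to 4 in pNE_M and 7 to 6 in pNE_H, and with the mitochondrial rows left out of the scaling 12 rose and 3 fell in aNE_M and 4 rose and 6 fell in pNE_M. The counts dropped by more than 1.5 times in aNE_T without aNE replicate 2 (5), aNE_T replicate 1 (7) or aNE_T replicate 2 (6), in aNE_M without aNE replicate 1 (6) or replicate 2 (7) and in aNE_H without aNE replicate 1 (5) or replicate 2 (4). They also did so in pNE_T without pNE_T replicate 2 (6) and in pNE_H without pNE replicate 2 (7) or pNE_H replicate 2 (7). The split also moved: 8 rose and 8 fell in pNE_H without pNE replicate 1, 5 rose and 7 fell in pNE_M without pNE replicate 2, and 8 rose and 3 fell in aNE_M without aNE_M replicate 1.

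Members of complex I moved both ways. NDUFB9, an accessory subunit of the membrane arm, stood at 240 and 269 TPM in aNE and 307 and 259 TPM in pNE. At day 4 it ranged from 150 to 226 TPM in the 12 libraries, all below the 4 day-2 libraries. It fell in all 6 comparisons, most in pNE_T (0.80, SE 0.11, adjusted p = 0.000101, limma) and least in aNE_M (0.31, adjusted p = 0.0423). The call in aNE_T was lost without aNE replicate 2 (adjusted p = 0.0549). In aNE_M it was lost without aNE replicate 1 (0.0507), aNE replicate 2 (0.241) or aNE_M replicate 2 (0.326), in aNE_H without aNE replicate 2 (0.0972) or aNE_H replicate 1 (0.0712), and in pNE_M without pNE replicate 1 (0.0636). With median-ratio scaling it was lost in aNE_M (0.127) and aNE_H (0.0544). NDUFB10, of the same arm, stood at 192 and 197 TPM in aNE and at 210.1 and 223 TPM in pNE. At day 4 it ranged from 150 to 186 TPM, and its largest fall was in pNE_H (0.47, SE 0.0762, adjusted p = 0.000325). NDUFB11 went up: it stood at 259 and 280.1 TPM in pNE and 370 and 389 TPM in pNE_T, a rise of 0.49 (SE 0.0747, adjusted p = 0.000225, limma). NDUFS3, of the core, rose by 0.51 in aNE_M, from 105 and 111 to 169 and 140 TPM (adjusted p = 0.000204), and by 0.35 in pNE_M, to 137 and 135 TPM (adjusted p = 0.00301).

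Among the other large changes by medium, NDUFS4, a complex I subunit needed for its assembly, rose by 0.35 in aNE_T and 0.34 in pNE_T (SE 0.0905, adjusted p = 0.0108 and 0.0107, limma). Those calls were lost without aNE replicate 2 (0.0759) or aNE_T replicate 2 (0.072), and without pNE replicate 2 (0.112) or pNE_T replicate 2 (0.0742). UQCR10, a small complex III subunit, rose by 0.37 in pNE_M (SE 0.0786, adjusted p = 0.00267). COX7C, of complex IV, fell by 0.36 in aNE_T (SE 0.0851, adjusted p = 0.00619). NDUFA8 rose by 0.34 in aNE_H (SE 0.0832, adjusted p = 0.00731), a call lost without aNE replicate 2 (0.0652). NDUFA1 rose by 0.53 in aNE_M (SE 0.167, adjusted p = 0.0262), a call lost without aNE replicate 1 (0.114), aNE replicate 2 (0.0746) or aNE_M replicate 1 (0.201).

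NDUFA3 and COX8A stood out in forebrain medium from aNE. NDUFA3, an accessory subunit of complex I, went from 362 and 302 TPM in aNE to 535 and 607 TPM in aNE_T, a rise of 0.78 (SE 0.135, adjusted p = 0.000645, limma). In pNE it went from 450.0 and 414 TPM to 426 and 467 TPM. COX8A went from 569 and 589 TPM to 839 and 900 TPM in aNE_T, a rise of 0.58 (SE 0.0883, adjusted p = 0.00024). COX5A moved the other way in the same libraries, from 369 and 338 TPM to 266 and 261 TPM, a fall of 0.42 (SE 0.0775, adjusted p = 0.00108), and fell by 0.37 in pNE_T and 0.35 in pNE_H. COX8A and COX5A, both of complex IV, thus changed in opposite directions in aNE_T.

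In complex II, SDHD and SDHB fell from pNE in all 3 media, while SDHA rose in midbrain and fell in hindbrain medium. SDHC, the other anchor, was not called, with a mean of 120.6 TPM in pNE and of 121.8, 119.6 and 137.8 TPM in forebrain, midbrain and hindbrain medium. SDHD went from 73.9 and 67.3 TPM in pNE to 50.3 to 57.5 TPM in the 6 day-4 libraries of posterior origin, and fell by 0.38 to 0.45 (SE 0.086). SDHB went from 67.6 and 59 TPM to 49.3 to 54.1 TPM and fell by 0.34 in pNE_M (adjusted p = 0.00357, limma), 0.29 in pNE_T and 0.23 in pNE_H. The SDHB call was lost in pNE_T without pNE replicate 1 (0.106) or pNE_T replicate 2 (0.102) and in pNE_H without pNE replicate 1 (0.254), pNE_H replicate 1 (0.109) or pNE_H replicate 2 (0.0987). The SDHD call was lost in pNE_T without pNE_T replicate 2 (0.0507). With median-ratio scaling the SDHB call was lost in pNE_T (0.0545) and pNE_H (0.31). SDHA stood at 46.2 and 48.6 TPM in pNE, 72.0 and 67.4 TPM in pNE_M and 39.3 and 36.8 TPM in pNE_H. It rose by 0.55 in pNE_M (SE 0.0855, adjusted p = 0.000248) and fell by 0.31 in pNE_H (adjusted p = 0.012). The fall was lost without pNE replicate 2 (0.0711) or pNE_H replicate 2 (0.0836) and in a fit of the compared libraries alone (0.0859). Between the 3 media of posterior origin its range was 0.86 (moderated F test, adjusted p = 1.76e-05), and its pseudogene rows limit the value as above. From aNE, SDHD fell by 0.28 in forebrain medium (adjusted p = 0.0241, limma) and was not called in hindbrain medium (0.03). SDHB was not called from aNE in forebrain (-0.09) or hindbrain medium (0.19). SDHA went from 50.2 and 48.5 TPM in aNE to 57.4 and 62.6 TPM in aNE_M and was not called in aNE_T or aNE_H.

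**Figure D4:**
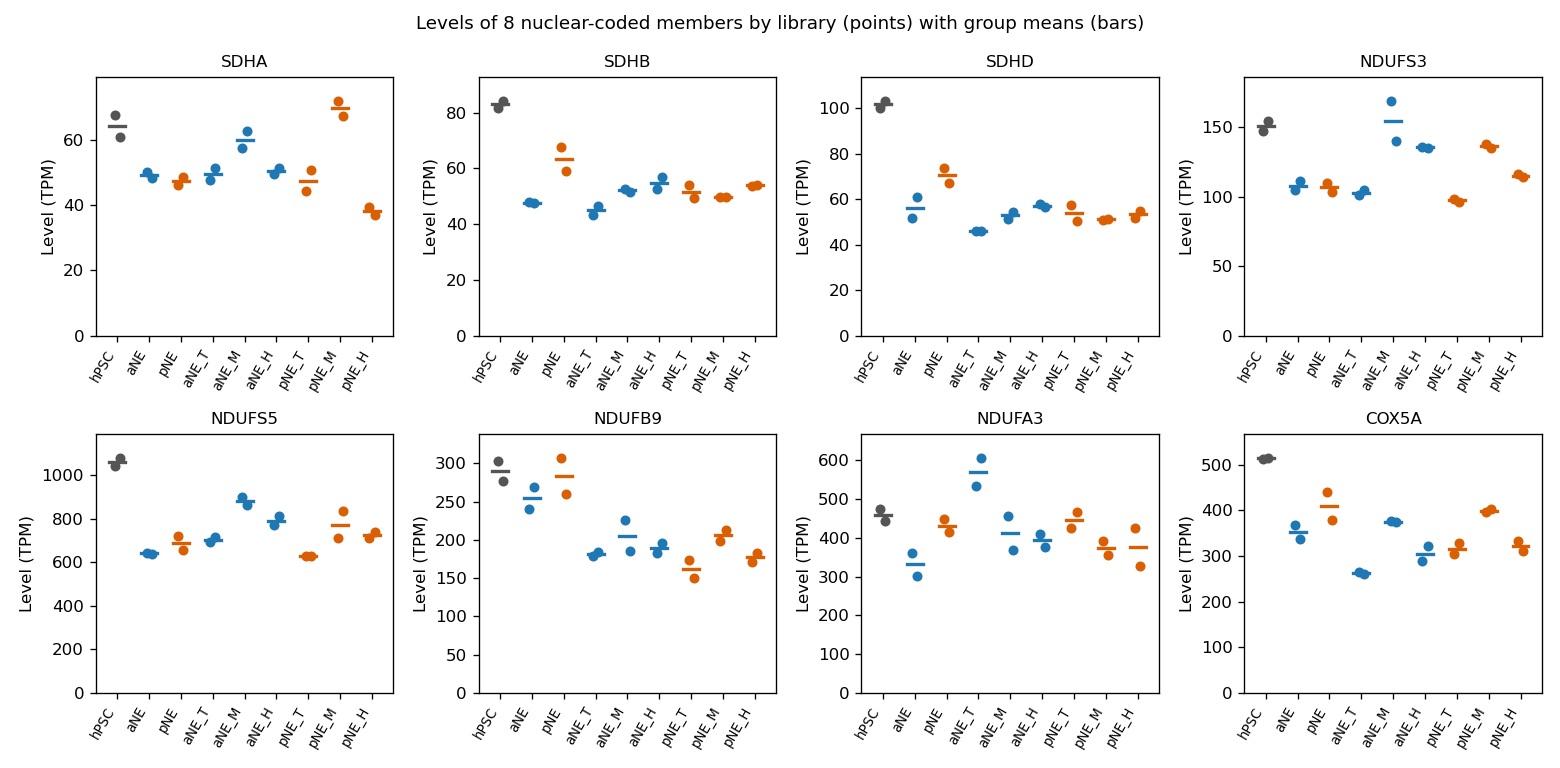
Levels of 8 nuclear-coded members (TPM, axes from 0), with 1 point per library and a bar at each group mean. Grey is hPSC, blue the groups of anterior origin and orange those of posterior origin. SDHB and SDHD are highest in hPSC, NDUFB9 is below all 4 day-2 libraries in the 12 day-4 libraries, NDUFA3 is highest in aNE_T and SDHA stands at 72.0 and 67.4 TPM in pNE_M and at 67.6 and 60.8 TPM in hPSC.

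Genes around the chain were described from lists by their counts. Over all tested genes, 22.6% rose and 18.9% fell in aNE, and 20.8% rose and 17.6% fell in pNE. For the nuclear part of complex V, 10 of 18 tested genes fell and 1 rose in aNE, and 8 fell and 1 rose in pNE. ATP5F1B, the catalytic beta subunit, fell by 0.49 and 0.42 (SE 0.0587). Of the 6 tested subunits outside the symbol rule, 3 fell and 1 rose in both: CYC1, the cytochrome c1 of complex III, fell by 0.54 and 0.44. NDUFAB1, the acyl carrier protein of complex I, fell by 0.44 and 0.52 (SE 0.136). Its call was lost in aNE without hPSC replicate 1 (adjusted p = 0.0818), hPSC replicate 2 (0.0702) or aNE replicate 1 (0.121), and in pNE without pNE replicate 2 (0.1) or in a fit of the compared libraries alone (0.0622). NDUFA4L2 rose by 1.73 in aNE and 1.48 in pNE (SE 0.496), at means of 3.5 and 2.78 TPM against 0.345 TPM in hPSC. That call was lost in aNE without hPSC replicate 2 (adjusted p = 0.0698) or aNE replicate 1 (0.0922), and in pNE when any 1 of its 4 libraries was left out (0.0548 to 0.157). COX4I1 was not called, at -0.10 in both. Of 45 assembly factors, 15 fell and 3 rose in aNE and 11 fell and 3 rose in pNE. NDUFAF5, which modifies a complex I subunit, fell by 1.19 and 1.02 (SE 0.194), and COX18, which inserts MT-CO2 into the membrane, fell by 1.08 and 1.38 (SE 0.334). The COX18 call was lost in aNE without hPSC replicate 1 (adjusted p = 0.129), aNE replicate 1 (0.0618) or aNE replicate 2 (0.0873), and in pNE without hPSC replicate 1 (0.0504).

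Of 29 tested nuclear genes for the transcription and upkeep of mitochondrial DNA, 2 rose and 8 fell in each day-2 group, with medians of -0.19 and -0.19, beside 0.06 and 0.05 over all tested genes. The shares over all tested genes were 22.6% rising and 18.9% falling in aNE, and 20.8% and 17.6% in pNE. TFAM, which packages mitochondrial DNA and helps to start its transcription, stood at means of 72.1 TPM in hPSC and, at day 2, 66.8 TPM in aNE and 86.0 TPM in pNE. It was not called (adjusted p = 0.497 and 0.102, limma). POLRMT, the mitochondrial RNA polymerase, was not called either, at 69.5, 64.4 and 56.7 TPM. At day 4, 12 of the 29 fell in aNE_T (14.6% of all tested genes fell) and 16 in pNE_T (18.1%). In midbrain medium 5 fell from aNE (18.8%) and 10 from pNE (20.7%), and in hindbrain medium 5 (17.5%) and 13 (22.6%). The counts of 5 lie near the shares over all tested genes. Of 78 mitochondrial ribosome genes, 44 fell and 1 rose in aNE and 31 fell and 1 rose in pNE, while of 84 cytosolic ribosome genes 9 fell and 4 rose in aNE and 22 fell and 5 rose in pNE. Of 14 nuclear regulators, 3 fell in each group, near the share over all tested genes, 1 rose in aNE and 2 rose in pNE. MYCN fell by 0.90 and 1.07 (SE 0.103).

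Glycolysis and the TCA cycle are the routes that feed the chain. Of 20 glycolysis genes 16 fell in aNE, 4 of them by at least 2-fold, and 14 fell in pNE, 3 of them by at least 2-fold, and 0 rose in either (limma). Over all tested genes 18.9% and 17.6% fell, and 6.19% and 5.74% fell by at least 2-fold. ALDOC fell by 2.21 in aNE and 1.77 in pNE (SE 0.148), LDHA, which turns pyruvate into lactate, by 1.58 and 1.30 (SE 0.12), and PDK1, which holds back pyruvate dehydrogenase, by 1.73 and 1.45 (SE 0.204). SLC2A1, a glucose transporter, fell by 1.13 in aNE and was not called in pNE (0.14). Of 18 TCA cycle genes, 6 fell in aNE and 5 in pNE, with 0 rising (limma). In midbrain medium 7 of the 18 rose and 2 fell from aNE, and 9 rose and 2 fell from pNE, while 16.7% of all tested genes rose and 18.8% fell from aNE, and 14.7% rose and 20.7% fell from pNE. Of 18 low-oxygen response genes, 5 rose and 5 fell in aNE and 6 rose and 3 fell in pNE, beside 22.6% rising and 18.9% falling in aNE and 20.8% and 17.6% in pNE over all tested genes.

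Nuclear copies of mitochondrial genes can take reads from the originals. The table holds 402 rows with such symbols, and their sum was 0.24% to 0.508% of the mitochondrial-coded sum in each library. The 3 listed copies that were tested rose in both day-2 groups: MTND1P23 by 3.18 in aNE and 3.22 in pNE (SE 0.447), MTATP6P1 by 1.64 in both and MTND2P28 by 1.53 and 1.30. The MTATP6P1 call was lost without aNE replicate 2 in aNE (adjusted p = 0.0845) and without pNE replicate 2 in pNE (0.124), and the MTND2P28 call in pNE without hPSC replicate 1 (0.0946) or pNE replicate 2 (0.143). Which genome their reads came from was not tested.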

How the data were processed

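RNA-seq was analysed for 18 libraries in 9 groups of 2. Per the labels' protocols, messenger RNA was selected with poly-T beads, primed with random hexamers and sequenced by a service provider. The authors deposited TPM per gene. Per the submitters' processing notes, the tools were bcl2fastq, FastQC, Trim Galore, kallisto and deepTools, with build hg38. Their versions, the annotation and the use of strand are not given in the sources used here. TPM sums to the same total in each library, so a rise in some genes lowers the shares of the others, and it holds no read depth, so no counting intervals are given.

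Genes were kept where 2 or more libraries reached 1 TPM, which left 17033, and their TPM was log2-transformed after adding a pseudocount of 1. On this scale a fold change understates the change of a low gene. The model, in limma 3.58.1 under R 4.3.3, had a mean for each of the 9 groups, a variance trend and 9 residual degrees of freedom. Two-sided p-values were adjusted over all tested genes by the Benjamini-Hochberg method, and a gene passed at an adjusted p under 0.05. The comparisons were 12 between pairs of groups, 3 interactions and 2 moderated F tests between media. The fit was tested on simulated data. Members and lists were chosen with earlier results of these data known. Named genes were the 13 mitochondrial-coded genes, core nuclear subunits, restricted isoforms with their partners, the 3 largest rises and falls per comparison among called nuclear members with at least 5 TPM, and list genes changed by at least 2-fold; other genes are examples chosen after their values were seen. Alternatives were a pseudocount of 0.1, a filter at 5 TPM or none, median-ratio scaling, scaling without mitochondrial rows, a 2-fold call, a fit of the compared libraries alone, a replicate block and leaving out each library. Of the 89 symbols 88 were found in GENCODE 29 (GRCh38). Results for 1 member are not reported here.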

Additional observations from a re-analysis of the deposited data

Results flagged for a closer look

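The change from day 2 to day 4 differed between origins for 8 combinations of a nuclear-coded member and a medium (interaction, limma, Benjamini-Hochberg adjusted over all tested genes; values are the log2 change from pNE minus that from aNE). In forebrain medium 2 of 62 passed, beside 12.3% of all tested genes: COX8A at -0.45 (SE 0.125, adjusted p = 0.0322) and NDUFA3 at -0.74 (SE 0.19, adjusted p = 0.022). Both rose from aNE, and neither change from pNE was called. In midbrain medium 1 passed, beside 13.9%: SDHB at -0.46 (SE 0.108, adjusted p = 0.0117), which went from 47.8 and 47.7 TPM to 52.6 and 51.5 TPM from aNE and from 67.6 and 59 TPM to 49.7 and 49.8 TPM from pNE. In hindbrain medium 5 passed, beside 16.1%: NDUFS1 at 0.49 (SE 0.147), NDUFA8 at -0.38 (SE 0.118), SDHB at -0.42 (SE 0.108), SDHD at -0.42 (SE 0.122) and NDUFV3 at -0.57 (SE 0.132, adjusted p = 0.0102). SDHB and SDHD were higher in pNE than in aNE at day 2, and at day 4 in hindbrain medium they stood at 53.7 and 54.1 TPM and 51.9 and 54.8 TPM in pNE_H against 52.7 and 56.9 TPM and 57.9 and 56.6 TPM in aNE_H.

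Each of these counts moved when 1 library was left out. The 2 in forebrain medium became 0 without aNE replicate 2 or aNE_T replicate 2, and 1 without aNE replicate 1, pNE replicate 2, pNE_T replicate 1 or pNE_T replicate 2. The 1 in midbrain medium became 2 without aNE replicate 2, aNE_M replicate 2 or pNE_M replicate 2 and 3 without aNE_M replicate 1 or pNE replicate 2. The 5 in hindbrain medium became 1 without aNE replicate 1, 2 without aNE replicate 2, aNE_H replicate 1 or aNE_H replicate 2, and 3 without pNE replicate 1. Origin and plating density cannot be told apart at day 4.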

How the results depend on the processing

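The mitochondrial-coded rises from hPSC, 13 in aNE and 13 in pNE, were the firmest result: leaving out 1 library gave 12 to 13 in both, and the other alternatives stayed within 1.5 times. Over 2789 alternative values of single-gene calls, 2331 kept the call, 458 kept the direction but lost the call and 0 reversed. Only calls of the main fit entered these values, and they were fitted again on the same libraries, so reversals were unlikely from the start. TPM gives no read depth, so no depth limit could be set, and with 2 libraries a group 1 library often decided a call.

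Numbers of nuclear-coded calls without 1 library ranged over 19 to 23 (aNE against hPSC), 15 to 23 (pNE against hPSC), 1 to 3 (pNE against aNE), 1 to 2, 1 to 5 and 3 to 4 (the origins in forebrain, midbrain and hindbrain medium), 5 to 9, 6 to 11 and 4 to 9 (aNE_T, aNE_M and aNE_H against aNE) and 6 to 12, 8 to 12 and 7 to 16 (pNE_T, pNE_M and pNE_H against pNE). The interactions gave 0 to 2, 1 to 3 and 1 to 5, and the media tests 7 to 16 from aNE and 6 to 10 from pNE. For mitochondrial-coded genes they were 0 to 0 between origins and in the interactions, 0 to 1, 11 to 12 and 6 to 8 (aNE_T, aNE_M, aNE_H), 0 to 3, 5 to 12 and 6 to 12 (pNE_T, pNE_M, pNE_H), and 0 to 7 and 0 to 6 in the media tests.

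With a 2-fold minimum the nuclear-coded count was 0 in every test except aNE_H against aNE (1) and pNE_H against aNE_H (1), both UQCRHP1, and the mitochondrial-coded count between days was 7 in aNE_M, 2 in pNE_H and 0 in the other 4, and 0 in both media tests. With the compared libraries alone the nuclear-coded count was 0 (pNE against aNE), 6 and 2 (origins in forebrain and hindbrain medium), 26 (aNE_T), 3 (pNE_T), 4 (pNE_H), and 0 and 2 (midbrain and hindbrain interactions), and the mitochondrial-coded count was 11 (aNE_T), 0 (pNE_T) and 11 (media from aNE). Without a filter on low values the nuclear-coded count was 3 (origins in hindbrain medium), 1 and 3 (forebrain and hindbrain interactions), and the mitochondrial-coded count was 1 (aNE_T), 0 (pNE_T), 1 and 0 (media from aNE and pNE). With median-ratio scaling the nuclear-coded count was 5 and 2 (origins in forebrain and midbrain medium), 1, 0 and 2 (the interactions), and the mitochondrial-coded count was 5 (aNE_T) and 1 (pNE_T). The cause was not tested. The log2 ratio of the sums, pNE against aNE, was -0.0229 and ran from -0.271 without pNE replicate 2 to 0.225 without pNE replicate 1, a change of direction. That of pNE_T against aNE_T was 0.181 and ran from -0.0658 without pNE_T replicate 2, again a change of direction, to 0.427 without pNE_T replicate 1.

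No shared shift by replicate number was seen: over 36 pairs of groups the correlation of same-numbered deviations ran from -0.09 to 0.076. These values cannot show whether same-numbered libraries were made together, which the labels do not say. With the replicate block, 4 in place of 2 mitochondrial-coded genes passed in aNE_T against aNE and 7 in place of 4 in the media test from pNE, and the other counts stayed within 1.5 times.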
